A study of Rattus norvegicus with 6 samples.

Results

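The genes described here encode the WNT ligands, their receptors and co-receptors, the secreted proteins that bind either of them, and the cytoplasmic and nuclear proteins that carry the signal. They were chosen by gene symbol among the rows that the deposited annotation calls protein-coding, and 59 of the 34156 genes in the table met the rule. The rule took the Wnt, Fzd, Sfrp, Dkk, Rspo, Dvl and Lgr4 to Lgr6 symbols, together with Lrp5, Lrp6, Ror1, Ror2, Wif1, Frzb, Axin1, Axin2, Apc, Ctnnb1, Tcf7, Lef1, Tcf7l1 and Tcf7l2. Axin1 was not analysed here, and Fzd10 fell outside the rule because the table annotates it as a pseudogene. It used no measured value.

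RNA-seq was performed on cultured rat fibroblast-like synoviocytes (FLS), the mesenchymal cells of the joint lining, whose labels give rheumatoid arthritis (RA) as the disease state and WT as the genotype. In the TNF-α group, 3 libraries came from cells given TNF-α, an inflammatory cytokine of the RA joint, at 10 ng/ml. In the TNF-α+EMO group, 3 libraries came from cells that received the same TNF-α with emodin (EMO), an anthraquinone of rhubarb, at 80 µmol/L. Both groups therefore carried TNF-α, and no library came from cells without it. The labels place every sample at day 5, whereas the study's methods describe a shorter incubation. The cells were a purchased stock, and the methods call the 3 libraries of a group biological replicates without saying whether each came from its own culture, so the p-values measure the spread between these libraries.

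In canonical WNT signaling a secreted, lipid-modified WNT protein bridges a Frizzled receptor and the co-receptor Lrp5 or Lrp6. Dishevelled is then recruited, the complex of Axin, Apc and kinases that marks β-catenin for destruction is disabled, and β-catenin enters the nucleus to work with TCF/LEF factors. Other WNT proteins, Wnt5a foremost, act through Frizzled and Ror receptors without β-catenin, and both routes have been studied in synovial fibroblasts for their part in invasion and cytokine production.

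The libraries held 16813322 to 17794455 counts. The labelled cell type was checked against 12 fibroblast markers, of which 11 were in the table. Their summed normalized counts lay between 273420 and 303946 with TNF-α and between 36555 and 39269 with TNF-α+EMO. Of the 8 that were tested, 7 were called lower with EMO, among them Col1a1 (log2 fold change -4.91), Col3a1 (-8.76), Pdgfra (-6.59) and Cdh11 (-6.20), while Vim, at -0.92, stayed at or above 31016 normalized counts in every library. The synovial fibroblast markers Thy1, Pdpn and Prg4 were under 10 counts in every library of both groups. Summed macrophage markers lay at 1205 to 1311 with TNF-α and 747 to 818 with TNF-α+EMO, 7 of these 10 genes were under 10 counts in every library, and Cd163 and C1qa were at 0. Most of that sum was Cd14, at 1029 to 1141 and 465 to 546, whereas Cd68 rose from 138 to 168 up to 245 to 267 (log2 fold change 0.75, adjusted p = 0.00024) and Itgam was at 0 to 0.98 with TNF-α and 10.2 to 14.3 with TNF-α+EMO, called higher. Endothelial markers summed to 69.2 to 76.5 and 13.2 to 21.7, epithelial markers (nearly all Krt8, with Epcam at 0) to 9950 to 10807 and 1984 to 2333, with Cldn4 called higher from 0 to between 16.5 and 28.5, lymphocyte markers to at most 6.87, and chondrocyte and osteoblast markers to at most 19.6. In bulk RNA, fewer cells of a type and less RNA per cell cannot be told apart, and the part of these marker differences in the WNT results was not tested.

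A gene was tested when at least 10 counts were present in at least 3 libraries, and called when its adjusted p was under 0.05 in edgeR's quasi-likelihood test and its log2 fold change (TNF-α+EMO over TNF-α) was over 1 in size. Of the 59 genes, 34 were tested. Emodin was accompanied by lower RNA for most of them: 27 were called lower, 1 (Wnt9a) was called higher and 6 were not called. Over all 13614 genes tested, 27.8% were called lower and 19.5% higher, against 79.4% of the tested WNT genes called lower. By adjusted p alone, 29 fell, 3 rose and 2 (Fzd3 and Dkk4) did not pass, where 41.4% of all tested genes fell and 39.4% rose. The median log2 fold change of the 34 was -3.32, beside -0.01 over all genes tested. The libraries of the 2 groups did not overlap for 32 of the 34, but also not for 11284 of all 13614 genes tested. Since 7 of the 34 had under 10 counts in every TNF-α+EMO library and entered the test through the TNF-α group, the count was also made over the 30 with a mean of at least 50 normalized counts. That mean is taken over both groups, so 3 of the 7 (Rspo3, Ror1 and Fzd4) remained among the 30. Wnt5a, Wnt10b and Tcf7 remained as well. Each of them reached 10 counts in only 1 TNF-α+EMO library, so it too was tested because of its TNF-α counts. Of the 30, 23 were called lower and 1 higher, where 25.3% of all genes with that mean were called lower.

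**Figure D1:**
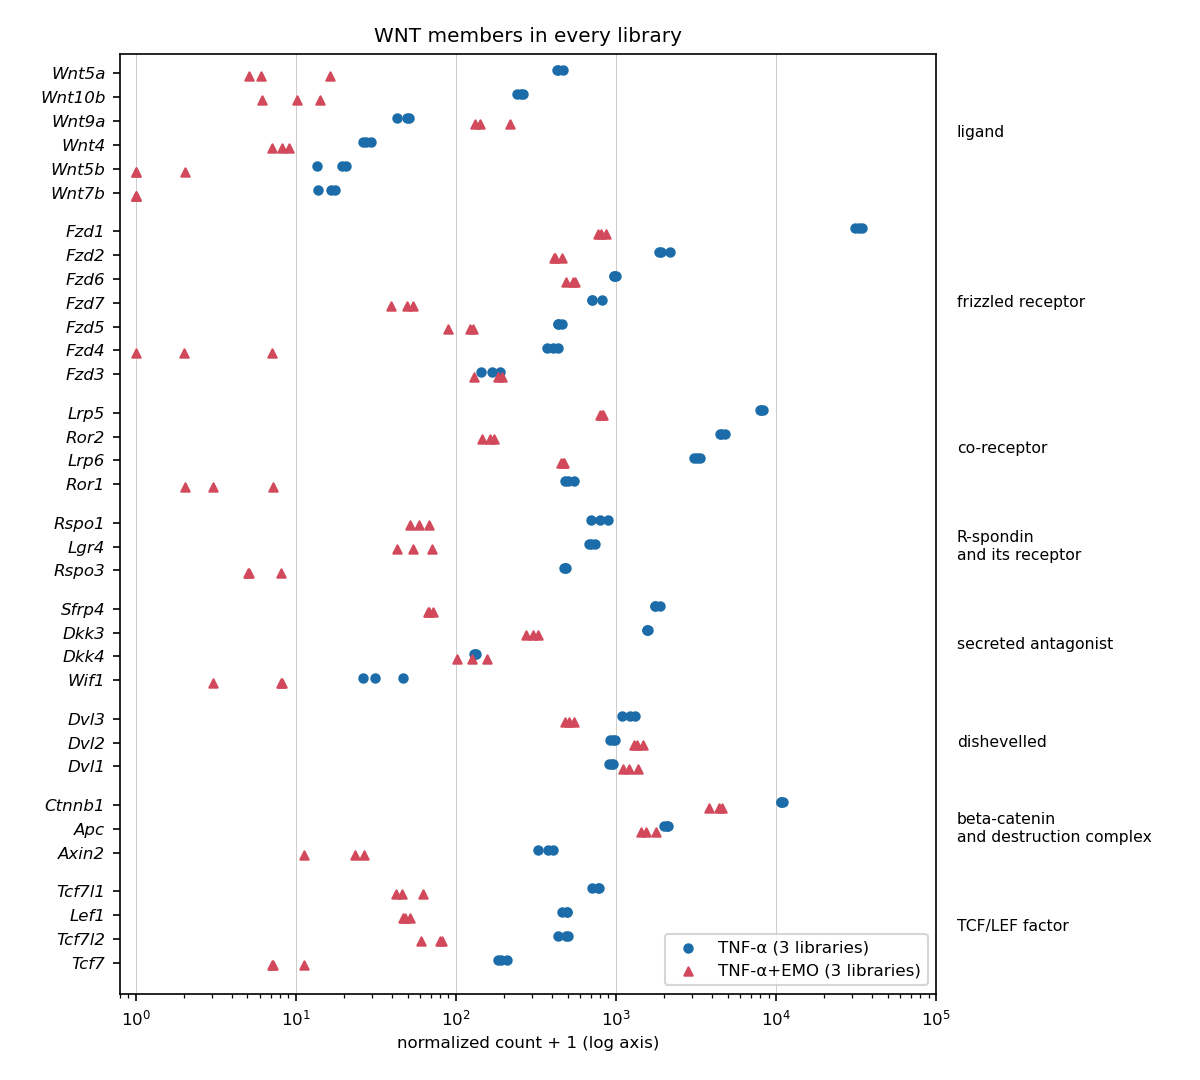
Normalized counts plus 1 of the tested WNT genes, on a log axis, with 1 point per library (circles TNF-α, triangles TNF-α+EMO) and genes grouped by role. For Fzd1 the TNF-α libraries sit between 31355 and 34603 and the TNF-α+EMO libraries between 776 and 864, whereas for Fzd3 and Dkk4 the groups overlap.

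Among the ligands, Wnt5a, the best-known non-canonical WNT, had 468, 434 and 427 normalized counts with TNF-α and 4.13, 15.3 and 5.09 with TNF-α+EMO. It was scarce in every library with EMO and fell by 5.73 on the log2 scale (SE 0.30, adjusted p = 2.4e-08). Without TNF-α+EMO replicate 2, the highest of the 3, its log2 fold change was -6.55. Wnt5a lies on chr16:4469468-4489860 of Rnor_6.0, plus strand. Wnt10b, a canonical ligand known for directing mesenchymal cells toward bone and away from fat, had 255, 262 and 240 with TNF-α and 5.16, 9.21 and 13.2 with TNF-α+EMO (log2 fold change -4.76, SE 0.26, adjusted p = 1.8e-08). The groups of both ligands were far apart.

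Wnt9a, a ligand expressed in developing joints, went the other way. Its normalized counts were 50.02, 48.8 and 41.9 with TNF-α and 141, 131 and 218 with TNF-α+EMO, and all 3 libraries with EMO lay above all 3 without it. The gene rose 3.48-fold (log2 fold change 1.80, SE 0.23, adjusted p = 2.7e-05), and it was the only tested ligand, receptor or antagonist called higher in any fit that kept a log2 threshold of 1. It lies on chr10:45659143-45681393, 21.1 kb from Wnt3a, which had 0 counts in every library.

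The remaining tested ligands were scarce. Wnt4 had 28.4, 26.3 and 25.3 normalized counts with TNF-α and 7.22, 6.14 and 8.15 with TNF-α+EMO (log2 fold change -1.88, SE 0.34). Wnt5b went from 12.7 to 19.6 normalized counts to at most 1.02, which is at least 5.51-fold lower against a floor of 3 counts per library, and Wnt7b from 12.8 to 16.6 to 0, at least 4.87-fold lower. All of these passed the test, with adjusted p of 0.00035, 7.4e-05 and 1.1e-04.

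The other 13 ligands were not tested. Wnt6 came nearest, with 21, 9 and 12 raw counts under TNF-α alone and 0, 2 and 0 under TNF-α+EMO. Its neighbour Wnt10a, 6.42 kb away on chromosome 9, had at most 7 counts, and Wnt1, 10.7 kb from Wnt10b on chromosome 7, at most 2. Wnt2b, at most 4 counts, overlaps St7l, whose reads could not be told apart from its own without strand. Wnt3, Wnt7a, Wnt8b and Wnt11 reached 1 count, and Wnt2, Wnt3a, Wnt8a, Wnt9b and Wnt16 none, so at this depth levels above 3 counts per library were not seen for these genes.

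The make-up of the ligand RNA differed between the groups, and whether its sum did depended on the scale. Summed normalized counts of the 19 ligands were 864, 820 and 789 with TNF-α and 158, 170 and 247 with TNF-α+EMO, which did not overlap. Per gene length (normalized counts scaled to the kilobase of deposited gene length and to the library's effective size, as in RPKM), they summed to 17.7 ± 0.98 with TNF-α and 16.1 ± 4.55 with TNF-α+EMO (SD, n = 3). Wnt10b made up 37.1% ± 1.29 of that sum with TNF-α, Wnt5a 29.1% ± 0.79 and Wnt9a 25.2% ± 1.08. With TNF-α+EMO, Wnt9a made up 96.7% ± 1.97, Wnt10b 1.47% ± 0.44 and Wnt5a 0.66% ± 0.60. No library of either group came near the shares of the other. The deposited length of Wnt9a is only 609 bases, which raises its per-length level and its weight in that sum. Counted without length, Wnt9a held 5.68% of the ligand counts with TNF-α and 85.0% with TNF-α+EMO, and Wnt5a held 53.7% and 4.57%.

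**Figure D2:**
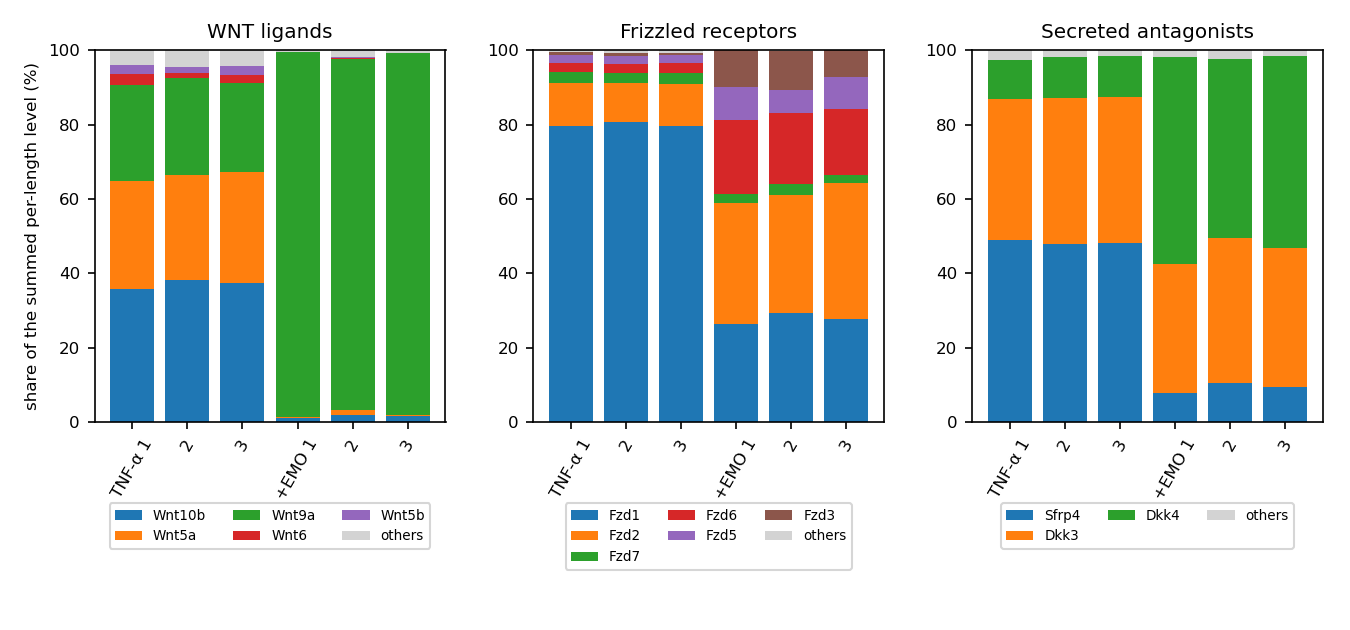
Share (%) of the summed per-length level held by each ligand, Frizzled receptor and secreted antagonist in every library, as stacked bars from 0 to 100. Wnt9a averages 25.2% of ligand RNA with TNF-α and 96.7% with TNF-α+EMO, Fzd1 80.1% and 27.8% of Frizzled RNA, and Dkk4 10.9% and 51.9% of antagonist RNA.

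The Frizzled receptors are the seven-pass membrane proteins that bind WNT directly. Fzd1 was the most abundant member at 437 RPKM with TNF-α, above Ctnnb1 at 264. It had 34603, 33220 and 31355 normalized counts with TNF-α and 776, 864 and 802 with TNF-α+EMO. It fell by 5.34 on the log2 scale (SE 0.07, adjusted p = 1.5e-12), a 40.6-fold difference against a spread of a few percent within each group. Fzd1 lies on chr4:26470864-26475262, plus strand.

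Fzd4 and Fzd7 were also much lower. Fzd4, which also serves as the receptor of norrin, went from 372, 432 and 401 normalized counts to 0, 6.14 and 1.02 (log2 fold change -7.32, SE 0.43), and its fold rests on very few counts with EMO: the log2 fold change was -9.31 without TNF-α+EMO replicate 2. Fzd7, a close relative of Fzd1 and Fzd2, went from 816, 713 and 714 to 48.5, 53.2 and 38.7 (log2 fold change -3.99, SE 0.13). Neither receptor showed any overlap between the groups, which also held for most genes tested.

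Fzd2 and Fzd5 changed less. Fzd2 had 2182, 1853 and 1921 normalized counts with TNF-α and 418, 408 and 460 with TNF-α+EMO (log2 fold change -2.21, SE 0.09, adjusted p = 1.4e-09). Fzd5 had 460, 435 and 437, then 128, 88.0 and 121 (log2 fold change -1.98, SE 0.14, adjusted p = 2.0e-07). Fzd6, usually placed in non-canonical signaling, had 1006, 980 and 979 against 559, 542 and 491, and its log2 fold change of -0.90 (SE 0.08, adjusted p = 1.2e-06) passed the test but was too small for a call.

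Fzd3, a receptor of axon guidance and planar cell polarity, did not pass. Its normalized counts of 168, 189 and 143 with TNF-α and 183, 193 and 129 with TNF-α+EMO overlapped (log2 fold change 0.01, SE 0.18, adjusted p = 0.94). Fzd9 reached 1 count and Fzd8 none. The summed Frizzled level was 546 ± 27.2 RPKM with TNF-α and 38.8 ± 0.45 with TNF-α+EMO (SD, n = 3). Within it, Fzd1 held 80.1% ± 0.63 and 27.8% ± 1.51, and Fzd2 held 11.1% ± 0.62 and 33.7% ± 2.58. Fzd2 was thus first per length with EMO, but not by counts. Counted without length, Fzd1 led in both groups, at 87.5% and 38.7%, and with EMO Fzd6 followed at 25.2% and Fzd2 at 20.4%.

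All 4 co-receptors were called lower, beside 27.8% of all genes tested. Lrp5 had 8274, 8088 and 7984 normalized counts with TNF-α and 833, 801 and 818 with TNF-α+EMO (log2 fold change -3.31, SE 0.06, adjusted p = 5.7e-12). Lrp6 had 3097, 3332 and 3212, then 464, 472 and 454 (log2 fold change -2.79, SE 0.06, adjusted p = 3.0e-11). Both lost most of their RNA with little spread between replicates. Lrp5 lies on chr1:218816841-218920094, minus strand.

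Ror1 and Ror2 are single-pass receptors with a Frizzled-like domain that bind Wnt5a. Ror2 had 4812, 4551 and 4501 normalized counts with TNF-α and 162, 173 and 145 with TNF-α+EMO, and fell by 4.85 on the log2 scale (SE 0.08, adjusted p = 4.5e-12). Ror1 went from 498, 550 and 480 to 6.19, 1.02 and 2.04 (log2 fold change -7.32, SE 0.28, adjusted p = 1.1e-09), and without TNF-α+EMO replicate 1 its log2 fold change was -8.27. Both receptors and their ligand Wnt5a were thus called lower, beside 27.8% of all genes tested, and a link between them was not tested. The 4 co-receptors together had 200.2 ± 3.48 RPKM with TNF-α and 16.6 ± 0.30 with TNF-α+EMO.

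R-spondins are secreted proteins that bind Lgr4 to Lgr6 and keep Frizzled receptors at the cell surface. Rspo3 had 481, 491 and 471.5 normalized counts with TNF-α and 4.13, 7.16 and 4.07 with TNF-α+EMO (log2 fold change -6.52, SE 0.19, adjusted p = 1.4e-10), a 91.7-fold difference. Rspo1 went from 895, 796 and 701 to 67.0, 58.3 and 50.9 (log2 fold change -3.76, SE 0.14), and Lgr4 from 684, 741 and 698 to 70.1, 53.2 and 41.8 (log2 fold change -3.68, SE 0.15). All 3 were called lower, beside 27.8% of all genes tested. Their groups did not overlap, which also held for most genes tested. Lgr5 and Lgr6, markers of epithelial stem cells, reached 5 and 3 counts, Rspo2 1 and Rspo4 none.

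Secreted antagonists of both kinds were measured: Sfrp4 and Wif1 bind WNT proteins, while Dickkopf proteins such as Dkk4 bind Lrp5 and Lrp6, and Dkk3 is a divergent member of that family. Sfrp4 had 1878, 1755 and 1744 normalized counts with TNF-α and 67.0, 66.5 and 71.3 with TNF-α+EMO, and fell by 4.71 on the log2 scale (SE 0.09, adjusted p = 8.8e-12). Dkk3 had 1595, 1573 and 1559, then 326, 272 and 303.5 (log2 fold change -2.39, SE 0.08, adjusted p = 5.8e-10). Wif1 was low, with 46.1, 30.2 and 25.3 against 7.22, 7.16 and 2.04 (log2 fold change -2.60, SE 0.46, adjusted p = 0.00031). Of the 4 antagonists tested, these 3 were called lower, beside 27.8% of all genes tested, and Dkk4 did not pass. The groups of these 3 did not overlap, which also held for most genes tested.

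Dkk4 had 132, 131 and 129.6 normalized counts with TNF-α and 156, 100.3 and 125 with TNF-α+EMO, and the groups overlapped (log2 fold change -0.04, SE 0.18, adjusted p = 0.84). It held 10.9% ± 0.22 of the summed per-length antagonist level with TNF-α and 51.9% ± 3.74 with TNF-α+EMO, while that sum was 47.0 ± 1.48 and 9.49 ± 1.40 RPKM. Sfrp4 had 48.3% ± 0.50 and 9.25% ± 1.33. Counted without length, Dkk3 rather than Dkk4 led with EMO, at 59.9% against 25.1%. Sfrp2 and Sfrp5 reached 2 and 3 counts, and Dkk1, Dkk2, Frzb and Sfrp1 none.

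**Figure D3:**
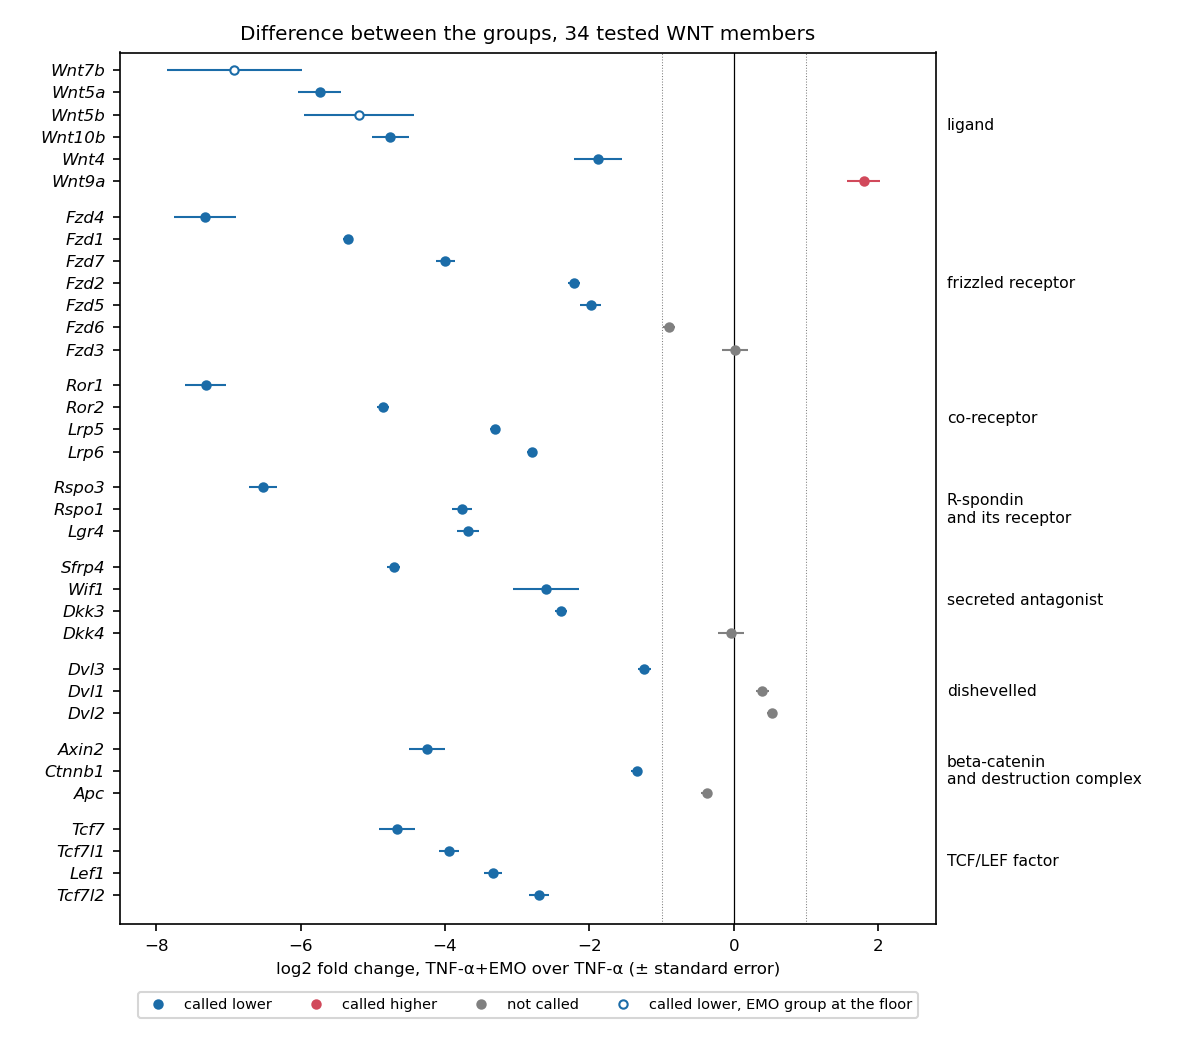
Log2 fold change (TNF-α+EMO over TNF-α) of the 34 tested WNT genes by role, with bars of 1 SE, grey points for genes not called and open circles for Wnt5b and Wnt7b, which were at the floor with EMO. All co-receptors, R-spondin genes and TCF/LEF factors lie below -1, and Wnt9a alone lies above 1 at 1.80. Fzd3 and Dkk4 lie near 0, and Dvl1 and Dvl2 lie between 0 and 1, at 0.40 and 0.53.

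Dishevelled relays the signal from Frizzled: Dvl1 had 941, 903 and 954 normalized counts with TNF-α and 1106, 1203 and 1373 with TNF-α+EMO (log2 fold change 0.40, SE 0.09, adjusted p = 0.0014). Dvl2 had 992, 957 and 919.6, then 1303, 1347 and 1487 (log2 fold change 0.53, SE 0.07, adjusted p = 5.5e-05). Both rose without reaching the fold of a call. Dvl3 fell, from 1314, 1219.9 and 1085 to 509.5, 546 and 479 (log2 fold change -1.24, SE 0.09, adjusted p = 2.8e-07), and the summed dishevelled level was 53.5 ± 2.10 RPKM with TNF-α and 59.4 ± 4.41 with TNF-α+EMO.

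Ctnnb1, which encodes β-catenin, had 10809, 11060 and 10810 normalized counts with TNF-α and 4588, 4441 and 3827 with TNF-α+EMO. It fell by 1.35 on the log2 scale (SE 0.07, adjusted p = 1.7e-08), 2.54-fold, and with 104 RPKM it was the most abundant member with EMO, ahead of Dvl2 at 28.8. Apc, the scaffold of the destruction complex, had 2092, 2109 and 2007, then 1788.5, 1552 and 1439 (log2 fold change -0.38, SE 0.08, adjusted p = 0.0012), too small for a call. These are RNA levels, and β-catenin is controlled largely through the stability of its protein.

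Axin2, a destruction complex scaffold that is itself a widely used target gene of β-catenin, went from 406, 378 and 327 normalized counts to 10.3, 25.6 and 22.4 (log2 fold change -4.24, SE 0.25, adjusted p = 3.8e-08). All 4 TCF/LEF factors, the DNA-binding partners of β-catenin, were called lower as well, beside 27.8% of all genes tested. Tcf7 went from 182, 207 and 192 to 6.19, 10.2 and 6.11 (log2 fold change -4.67, SE 0.24, adjusted p = 1.4e-08), and Tcf7l1, mostly a repressor, from 787, 775 and 708 to 41.3, 45.02 and 61.1 (log2 fold change -3.94, SE 0.14). Lef1 went from 458, 495 and 496 to 50.5, 47.1 and 45.8 (log2 fold change -3.33, SE 0.12), and Tcf7l2 from 433, 498 and 490.0 to 78.4, 80.8 and 60.1 (log2 fold change -2.69, SE 0.14). No factor showed overlap between the groups, which also held for most genes tested. The summed level of the 4 factors was 37.9 ± 1.36 RPKM with TNF-α and 3.35 ± 0.14 with TNF-α+EMO.

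TCF/LEF factors bind letters such as CTTTGAT and CTTTGTT on either strand. The promoters of the members (250 bases before to 50 after the gene start, RefSeq, build GRCr8, matched by symbol for 43 of the 59 genes) were searched for both. Other forms of the site, such as CTTTGAA, were neither searched nor marked, so a promoter without a match may hold one. CTTTGAT occurred in 2 of the 43 (4.65%) and in 3.63% of all 33469 promoters. CTTTGTT also occurred in 2 of the 43, those of Dkk1 and Wnt3, and in 5.98% of all, and no member held both. The shares of the 43 members and of all promoters were thus close. Among the 23 tested members with a promoter, 2 (8.70%) held CTTTGAT and 0 held CTTTGTT. Of 11 promoters of the β-catenin target genes listed below, 2 (18.2%) held each. These subsets are small, and a match is only a description of the letters in this window. The member promoters with CTTTGAT belong to Axin2 (chr10:94398535-94398834, plus strand) and Tcf7 (chr10:36954230-36954529, minus strand), both called lower. They are shown with the match in capitals because they join a target gene to a factor of the pathway. The match starts 132 bases before the start of Axin2 and 4 bases before that of Tcf7.
Axin2: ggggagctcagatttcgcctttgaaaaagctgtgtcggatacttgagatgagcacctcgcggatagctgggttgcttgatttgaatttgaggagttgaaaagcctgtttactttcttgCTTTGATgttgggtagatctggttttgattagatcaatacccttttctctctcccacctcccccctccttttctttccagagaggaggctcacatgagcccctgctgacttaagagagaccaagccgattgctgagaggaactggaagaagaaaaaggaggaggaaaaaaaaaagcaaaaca
Tcf7: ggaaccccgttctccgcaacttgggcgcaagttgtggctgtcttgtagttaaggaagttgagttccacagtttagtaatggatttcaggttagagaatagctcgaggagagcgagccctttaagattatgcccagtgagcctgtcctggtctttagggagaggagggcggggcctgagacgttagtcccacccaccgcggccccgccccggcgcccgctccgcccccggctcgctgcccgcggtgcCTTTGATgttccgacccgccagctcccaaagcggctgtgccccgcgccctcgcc

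The wider pathway was examined through 64 further genes in the table, of which 54 were tested. Of these, 27 were called lower and 0 higher, and by adjusted p alone 36 fell and 8 rose. Over all genes tested, 27.8% were called lower and 19.5% higher, and 41.4% fell and 39.4% rose by adjusted p alone. The median log2 fold change of the 54 was -0.98, beside -0.01 over all. Of the 54, 6 had under 10 counts in every TNF-α+EMO library and entered the test through the TNF-α group, as did 884 of all 13614. The count of 0 rests on the fold threshold, as the 8 that rose had log2 fold changes under 1. The list had been drawn up with earlier results of these data known, so its counts are descriptions.

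WNT secretion needs Porcn, which attaches the lipid, and Wls, which carries the ligand to the surface. Wls had 4486, 4365 and 4422 normalized counts with TNF-α and 4678, 4757 and 4572 with TNF-α+EMO, and did not pass (log2 fold change 0.08, SE 0.05, adjusted p = 0.20). Porcn had 224, 214 and 211, then 87.7, 117 and 118, a log2 fold change of -1.01 (SE 0.16) that lost its call without TNF-α replicate 1 (-0.98) or TNF-α+EMO replicate 1 (-0.89).

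All 5 extracellular modulators tested were called lower, beside 27.8% of all genes tested. They were Kremen1, a Dickkopf receptor, at a log2 fold change of -1.17, Serpinf1 at -1.35, Igfbp4 at -2.48, the glypican Gpc4 at -1.85 and Tpbg at -1.58. Among other receptors and membrane inhibitors, Ptk7 (-4.46) and Apcdd1 (-3.22) were called lower, and the WNT receptor Ryk passed the test at -0.92.

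Of 14 genes for the kinases, ubiquitin ligases and tankyrases that act on β-catenin or its destruction complex and for the membrane scaffold Amer1, 1 was called lower, beside 27.8% of all genes tested, and their median log2 fold change was 0.08. That gene was Amer1, with 459, 429 and 449 normalized counts against 17.5, 15.3 and 9.17 (log2 fold change -4.98, SE 0.19). Gsk3a, whose product phosphorylates β-catenin, rose by a log2 fold change of 0.83 and Gsk3b fell by 0.42, both without a call. Log2 fold changes were -0.07 for Csnk1a1, 0.00 for Csnk1d and 0.03 for Csnk1e, which did not pass, and 0.59 for Tnks and 0.85 for Siah1, which rose. The symbol Tnks2 belonged to 2 annotated genes, and only the first was used. Its counts varied widely within both groups, and it did not pass (log2 fold change -0.51, SE 0.89).

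Of 14 nuclear cofactors, 7 were called lower and 13 fell by adjusted p, beside 27.8% and 41.4% of all genes tested. Bcl9l, which links β-catenin to its co-activators, had the lowest value, from 4949, 4406 and 4370 to 355, 392 and 460 (log2 fold change -3.51, SE 0.10, adjusted p = 1.2e-10). Bcl9 was at -1.89, the co-repressor genes Tle1 and Tle2 at -1.11 and -2.19, the β-catenin inhibitor Ctnnbip1 at -1.90 and the acetyltransferase Ep300 at -1.12. Crebbp, at -1.03, lost its call without TNF-α replicate 2 (-0.999) or TNF-α+EMO replicate 3 (-0.87). Activators and repressors were thus both among the genes called lower.

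Of 10 planar polarity genes, which serve the non-canonical route, 7 were called lower, beside 27.8% of all genes tested. Of the 10, 4 (Prickle2, Celsr2, Vangl2 and Prickle3) had under 10 counts in every TNF-α+EMO library and entered the test through the TNF-α group. Prickle2 went from 287, 283 and 279 normalized counts to 5.16, 2.05 and 1.02 (log2 fold change -6.63, SE 0.30, or -7.42 without TNF-α+EMO replicate 1), Celsr2 was at -5.74, Vangl2 at -5.69 (-6.79 without TNF-α+EMO replicate 2), Prickle1 at -2.69, Fuz at -1.30 and Vangl1 at -1.06. Daam1, a formin downstream of dishevelled, did not pass at -0.07. Of 5 cytoplasmic feedback inhibitors, 4 were called lower, beside the same 27.8% of all genes tested. They included Nkd1 at -4.21 and Dact3 at -3.22. Of the 5, 2 (Dact1 and Dact2) had under 10 counts in every TNF-α+EMO library, and Nkd1 reached 10 in only 1. These genes too were tested because of their TNF-α counts.

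**Figure D4:**
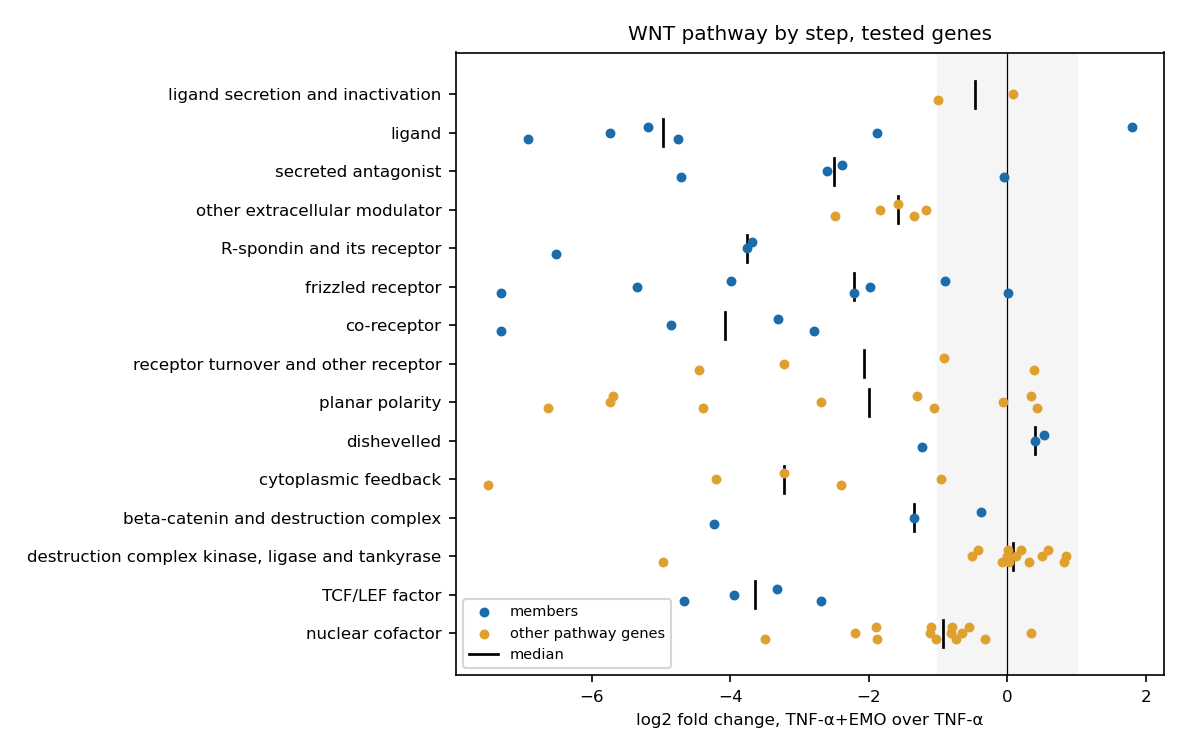
Log2 fold change (TNF-α+EMO over TNF-α) of each tested pathway gene, arranged by its step from ligand secretion to nuclear cofactors, with 1 point per gene (blue, members; orange, other pathway genes), a line at the median of each step and grey shading from -1 to 1. The median is 0.08 for destruction complex enzymes and 0.40 for dishevelled, against -4.08 for co-receptors and -3.64 for TCF/LEF factors.

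Among 16 known target genes of β-catenin in the table, 11 were tested, 7 were called lower and 1 higher, beside 27.8% and 19.5% of all genes tested. Their median log2 fold change was -1.29. Of the 11, 2 (Sox9 and Ephb2) had under 10 counts in every TNF-α+EMO library, and Nkd1 reached 10 in only 1. These genes were tested because of their TNF-α counts. Ccnd1, encoding the cell cycle protein cyclin D1, had 13720, 13454 and 12618 normalized counts with TNF-α and 815, 764 and 802 with TNF-α+EMO (log2 fold change -4.06, SE 0.07, adjusted p = 3.6e-12). Sox9 was at -6.85, Ephb2 at -4.98, Bambi at -1.29 and Twist1 at -1.25, and Nkd1 and Apcdd1, given above, belong to this list too. The targets did not move as one group. Fosl1, an AP-1 subunit, rose from 236, 270 and 241 to 1192, 1308 and 1441 (log2 fold change 2.40, SE 0.10, adjusted p = 2.0e-09). Myc (-0.69) and Ccn4 (-0.53) passed without a call, and Cd44, at 5082 to 5556 normalized counts with TNF-α and 4637 to 5401 with TNF-α+EMO, did not pass (log2 fold change -0.05, adjusted p = 0.53). Most of these genes respond to other signals as well.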

How the data were processed

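RNA-seq of rat FLS was analysed in 6 libraries, grouped by the labelled treatment. Per the study's methods and the submitters' processing notes, poly(A)-selected paired-end reads were cleaned with Trimmomatic, checked with FastQC and aligned with HISAT2 to Rnor_6.0. The counting program and strand setting are not given in the sources used here. The authors deposited raw counts per gene, and FPKM values, which they scaled by gene length and depth. FPKM was used only to recompute the shares within ligands, receptors and antagonists. These were bound to come out equal, because the gene lengths are the same and the depth of a library cancels in a share. The authors also deposited 5 columns of their own comparison (group means, a log2 fold change and p-values), which were not used.

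TMM scaling and a robust quasi-likelihood F test were applied to the counts (edgeR 4.0.16, R 4.3.3; 2 groups, no covariate), with Benjamini-Hochberg adjustment over all 13614 genes having at least 10 counts in at least 3 libraries. The SE is the log2 fold change divided by the root of F. Normalized counts are counts scaled by TMM effective library size to the mean library. Genes with at most 3 counts in every library of a group were given as bounds against that floor, which covers counting error only. The common biological coefficient of variation was 0.121. With 3 against 3 libraries, an exact permutation test cannot go below p = 0.1, so single values such as shares are given without a test. Scripts were tested on simulated counts. All tested WNT genes were named, and from the other lists the called genes with a mean of at least 50 normalized counts. The uncalled genes named from those lists were chosen after their values were seen. The WNT genes, the gene lists and the tests were chosen with earlier results of these data known. Alternatives were DESeq2 1.42.0 and its size factors, total counts or upper quartile scaling, other filters and fold thresholds, leaving out each library and the replicate block. Bounds for genes at the floor, the restriction to means of at least 50 and the shares from FPKM or without length were added after seeing the data.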

Additional observations from a re-analysis of the deposited data

How the results depend on the processing

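The count of 27 WNT genes called lower stayed between 23 and 30 in every alternative and was 27 whichever library was left out. The number tested was not the same throughout. It was 34 in the main fit, but 23 of 30 were called lower with a filter of 50 counts and 30 of 48 with no filter, a smaller share. With the replicate block it was also 27. Same-numbered libraries did not deviate together (correlations of -0.0068 to 0.068), so the numbers were not taken as pairs. At a log2 threshold of 2, 0 WNT genes were called higher and 15 of the other pathway genes lower; with no fold threshold, 3 WNT genes and 8 other pathway genes were called higher. Over the tested WNT genes the median of -3.32 became -2.75 with no filter on low counts, -3.44 with scaling by total counts and -2.74 with genes at the floor set to their bound. The first of these tested more scarce genes, and scaling by total counts moved the median of all genes by itself, to -0.12; with no filter it was -0.13. Fzd3 had no stable sign: -0.0043 with a filter of 50 counts, -0.10 with total counts, -0.026 with upper quartile scaling and -0.10 to 0.17 without 1 library. Dkk4 ran from -0.22 to 0.10 without 1 library. Fzd6 gained a call with total counts (-1.01). Of 892 values of single genes under an alternative, 880 kept their direction and side of the threshold.

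Genes under 10 counts in most or all of the TNF-α+EMO libraries have folds set by few counts. Without 1 library, Fzd4, Ror1, Wnt5a, Vangl2 and Prickle2 moved by over 1.5 times, as given beside their values. The fitted value of Wnt5b, which is reported as a bound, went from -5.19 to -7.10. Length enters every RPKM level, and the RNA levels say nothing of protein.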
